A study of Mus musculus with 6 samples.

Results

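Most subunits of the mitochondrial respiratory chain are encoded in the nucleus, and their mRNAs were compared between macrophages given stearic acid and macrophages given vehicle. Genes were taken by name, as Ndufa, Ndufb, Ndufc, Ndufs and Ndufv genes with a number for complex I, Sdha to Sdhd for complex II, Uqcr genes for complex III, Cox4 to Cox8 genes for complex IV and Atp5 genes for complex V. Of 36333 genes listed in each library, 86 carried such a name, and 79 of these had a mean of 1 TPM (transcript per 1000000) or more over the 6 libraries. In the stearic acid group (3 libraries), bone marrow derived macrophages of C57BL/6 mice, wild type by the study's design, received 100 µM stearic acid, a saturated long-chain fatty acid, for 24 h. In the vehicle group (3 libraries), cells of the same genotype and preparation received an equivalent volume of ethanol for 24 h. All cells had been grown from bone marrow for 7 days in M-CSF, the growth factor that drives macrophage differentiation, so they are a culture model of a primary macrophage. Nothing in the labels ties the 3 libraries of a group to separate animals or cultures. The p-values therefore refer to the spread among these libraries, which may be technical.

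Complexes I to IV pass electrons from NADH, succinate and ubiquinol to oxygen, and complexes I, III and IV pump protons across the mitochondrial inner membrane. Complex V, the ATP synthase, uses the proton gradient to make ATP. Every complex other than complex II also contains subunits encoded by mitochondrial DNA, which are not analysed here. In macrophages the respiratory chain is known to change its activity with activation, and it is a known source of reactive oxygen species.

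Of the 79 subunit mRNAs, 2 were higher with stearic acid, 3 were lower and 74 did not pass the test. The higher ones were Cox6a2 and Uqcrq, and the lower ones were Cox7a2l, Cox6b2 and Atp5g2. Thus 6.33% of the subunit genes passed, whereas 24.7% of all 11551 genes tested passed (limma on log2(TPM + 1), adjusted p under 0.05 over all genes tested). By direction, 2.53% of the subunit genes were higher, where 12.8% of all genes were, and 3.8% were lower, where 11.9% of all genes were. The median log2 fold change, stearic acid over vehicle, was -0.003 over the subunit genes (-0.060 to 0.020 when leaving out each library, highest without vehicle replicate 2 and lowest without vehicle replicate 3) and -0.028 over all genes tested. Regardless of sign, its median size was 0.088 for the subunit genes and 0.167 for all genes, with median standard errors of 0.080 and 0.089. The 95% confidence interval of the fold change lay within 1.5-fold in both directions for 76 of the 79 subunit genes (96.2%), the exceptions being Cox6a2, Cox6b2 and Cox7a2l, and for 78.5% of all genes. Many subunit mRNAs are abundant, so the 3275 genes with a mean of 50 to 1000 TPM were counted as well, and 28.3% of them passed. Whether the subunit genes differ as a class from other genes was not tested. Because 1 TPM was added before taking logs, fold changes of mRNAs near 1 TPM come out smaller than the ratio of their levels.

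**Figure D1:**
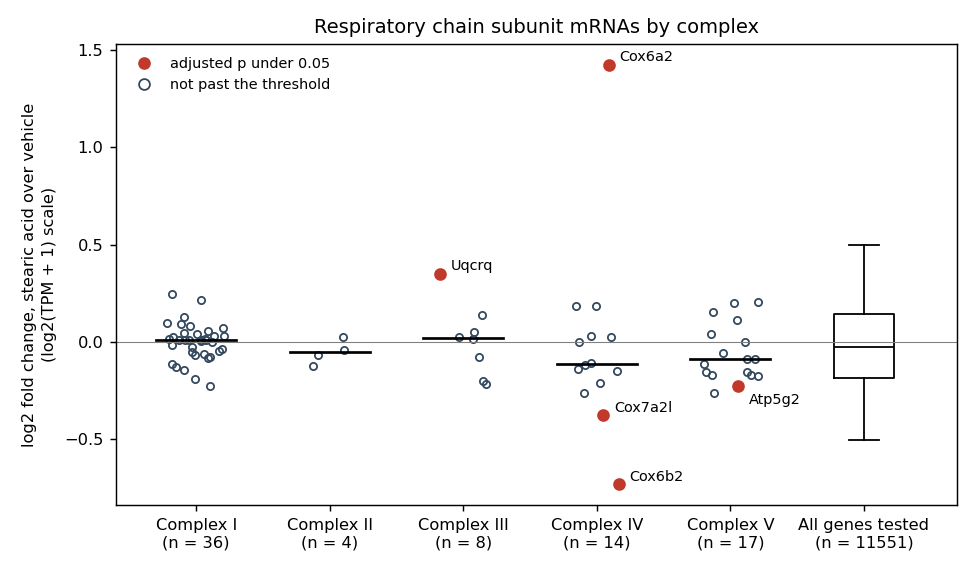
Log2 fold change (stearic acid over vehicle, log2(TPM + 1) scale) of the 79 subunit genes, with a point for each gene, grouped by complex, with a bar at each median. The box spans the quartiles of all genes tested, its line is their median and its whiskers run to the 5th and 95th percentiles. Points of complex I lie between -0.227 and 0.244, and complex IV has the widest range, -0.734 to 1.424.

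The number of subunit genes that passed moved with single libraries, as did the number among all genes. Without stearic acid replicate 1, 13 subunit genes passed (16.5%), where 43.4% of all genes did. Without stearic acid replicate 2, 4 passed (5.06%), where 17.3% of all genes did, and without stearic acid replicate 3, 1 passed (1.27%), where 8.7% of all genes did. Leaving out vehicle replicate 1, 2 or 3 left 1, 2 or 1 subunit genes (1.27%, 2.53% and 1.27%), where 9.29%, 4.76% and 5.44% of all genes passed. With no filter on low values 1 passed, Cox6a2, where 4.75% of 21632 genes did. In each of these 7 fits the share among the subunit genes was below that among all genes. On RPKM values, which are scaled to the reads of a library and not to its summed TPM, 4 subunit genes were higher and 2 were lower, in place of 2 and 3. These are 7.59% of the subunit genes, where 29% of all genes passed. Over all genes, 1981 were higher and 1373 lower on RPKM values, in place of 1482 and 1374.

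For some subunit genes the values of the groups did not overlap. All 3 stearic acid values lay above all 3 vehicle values for 9 subunit genes (11.4%), where this held for 22.8% of all genes, and they lay below for 15 (19%), where this held for 21.7% of all genes. The 15 became 3 on RPKM values and 5 on TPM values rescaled by median-of-ratios size factors, so the lower side depends on the scaling. The shares over all genes under these scalings are not given here, so this change is not set beside theirs. For single genes, non-overlap is given on TPM values without rescaling.

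Vehicle replicate 2 stood apart from the other libraries in these genes. It held the highest of the 6 values for 48 of the 79 subunit genes (60.8%), but for 7.12% of all genes tested. Its median deviation from the mean of the 6 libraries was 0.112 on the log2 scale over the subunit genes and -0.054 over all genes. Every complex showed it, with medians of 0.114, 0.051, 0.106, 0.190 and 0.149 for complexes I, II, III, IV and V. The deviation was 0.168 for the 40 subunit genes with a transcript length of 608 bases or less and 0.054 for the 39 longer ones. These lengths are medians over all annotated transcripts of a gene, and can differ from the length of the mRNA that was measured. Over the 79 genes, Spearman's rho between transcript length and this deviation was -0.409, a description of genes that share a library. Over all 735 tested genes under 600 bases, the same library's median deviation was -0.010, against -0.054 over all genes. Over the 10907 tested genes with a length, rho in this library was -0.094. The sums and the median fold changes of each complex are therefore given with and without this library. The median log2 fold change over all genes tested was -0.057 without it, against -0.028 with it.

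**Figure D2:**
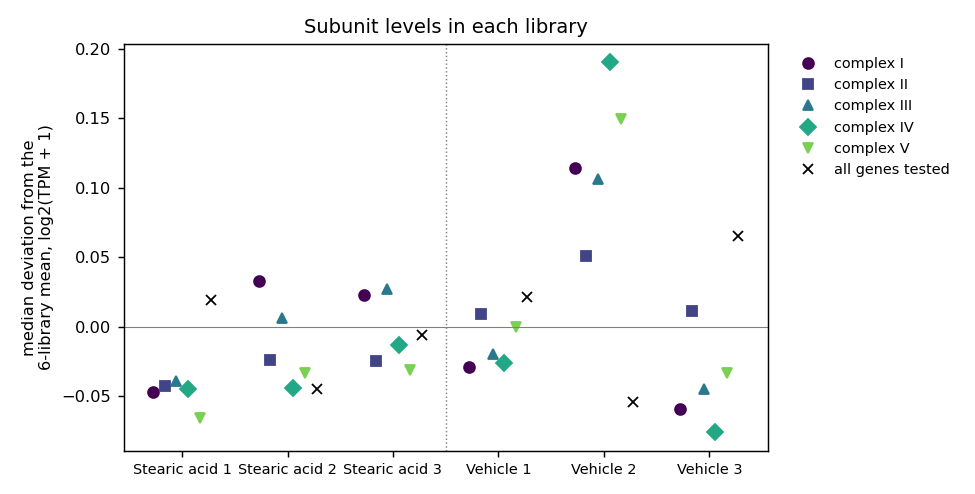
Median deviation from the mean of the 6 libraries (log2(TPM + 1) scale) over the subunit genes of each complex (symbols) and over all genes tested (crosses), in each library. Vehicle replicate 2 is the highest library in every complex, at 0.114 in complex I and 0.190 in complex IV, while its cross lies at -0.054.

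Depth, estimated from the smallest steps of the deposited RPKM values and given in units of 1e+06 reads or read pairs, was 64.1, 76.3 and 71.5 in the stearic acid libraries and 80.8, 75.2 and 58.0 in the vehicle libraries. At that depth 1 TPM stands for 19.1 to 27.8 reads or read pairs per kilobase, so among the subunit genes counting error is largest for Cox6a2 and Cox6b2. The macrophage label was checked with 8 markers, which all passed the filter on low values. Cd68 was higher with stearic acid (log2 fold change 0.30), while Adgre1, Itgam, Fcgr1 and Lyz2 were lower (-0.59, -0.51, -0.39 and -0.41), and each of these 5 kept at least 90.41 TPM in every library. Thus 62.5% of the macrophage markers passed, against 24.7% of all genes. Csf1r, Mertk and Cd14 did not pass (log2 fold changes -0.345, -0.556 and 0.113, limma adjusted p = 0.0552, 0.0737 and 0.233). Mertk was lowest in stearic acid replicate 2, at 14.23 TPM. Of 27 markers of neutrophils, lymphocytes, dendritic cells, stroma, erythroid cells and mast cells, 7 were at 0 in every library, and S100a8 alone reached a mean of 1 TPM. S100a8, a neutrophil marker, was higher, at 6.41 ± 0.467 TPM with stearic acid and 3.33 ± 1.18 TPM with vehicle (log2 fold change 0.81, limma adjusted p = 0.016). The 27 together summed to 8.30 to 10.7 TPM with stearic acid and 5.82 to 9.23 TPM with vehicle, and their part in the results was not tested.

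The summed level of the 79 subunit genes overlapped between the groups. They summed to 18797.5, 19438.8 and 19445.7 TPM with stearic acid, against 19249.5, 21441.0 and 18831.2 TPM with vehicle. These are means of 1.92% of the mRNA with stearic acid and 1.98% with vehicle, and vehicle replicate 2 was the highest. The ratio of the mean sums, stearic acid over vehicle, was 0.969 with all libraries and 1.010 without vehicle replicate 2. In bulk RNA, less RNA of a kind per cell and fewer cells of a type cannot be told apart.

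On the TPM scale, which is per transcript length, subunits of complex I were the least abundant and those of complexes IV and V the most. The median of the genes' mean TPM was 124 in complex I, 234.9 in complex II, 227.5 in complex III, 384.3 in complex IV and 364.3 in complex V. Complex II was narrow, from 229.9 to 252.3 TPM, while complex IV ran from 1.985 to 877.3 TPM. With stearic acid the medians of complexes I to V were 126.5, 233.3, 224.8, 376.1 and 344.5 TPM, against 121.5, 239.7, 230.3, 372.8 and 384.1 TPM with vehicle. The order was thus the same apart from complexes IV and V, which changed places.

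**Figure D3:**
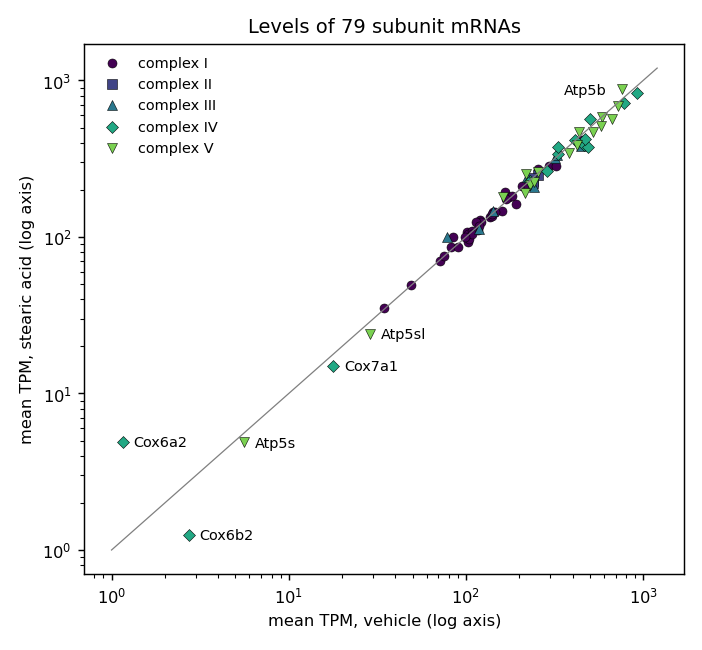
Mean TPM of each of the 79 subunit genes with stearic acid (vertical, log axis) against vehicle (horizontal, log axis), with the line of equal levels. The genes cluster along the line, and Cox6a2 (4.91 TPM with stearic acid, 1.16 TPM with vehicle) and Cox6b2 (1.25 TPM with stearic acid, 2.72 TPM with vehicle) lie off it at the low end.

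Complex I, the NADH dehydrogenase, was the largest group. None of its 36 tested genes passed the limma test, where 24.7% of all genes did. An unadjusted limma p under 0.05 was found for 2 of them (5.56%), against 40.4% of all genes. The median log2 fold change was 0.009, or 0.048 without vehicle replicate 2 and -0.034 without vehicle replicate 3, single genes ranged from -0.227 to 0.244, and all 36 confidence intervals lay within 1.5-fold. The summed level was 5070.5, 5340.7 and 5309.7 TPM with stearic acid, against 5139.5, 5755.3 and 5024.2 TPM with vehicle, a ratio of 0.988, or 1.031 without vehicle replicate 2. The sums overlapped. The 7 core subunits in the list, which carry the flavin and the iron-sulfur centres, had a median log2 fold change of 0.003 (-0.032 to 0.039 when leaving out each library), and the 29 accessory subunits had one of 0.011 (-0.057 to 0.063).

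Ndufs7, the core subunit with the last iron-sulfur centre before ubiquinone, had the largest change in complex I. Its level was 102, 104 and 93.4 TPM with stearic acid, against 89.7, 86.2 and 76.8 TPM with vehicle. All stearic acid values lay above all vehicle values, but the log2 fold change of 0.24 (SE 0.080) did not pass (limma adjusted p = 0.053). It passed in 3 of 14 alternatives. Ndufb11, an accessory subunit of the membrane arm, was chosen after its values were seen. It had 173, 157 and 158 TPM with stearic acid, against 194, 210.4 and 170.0 TPM with vehicle, which overlapped (log2 fold change -0.23, limma adjusted p = 0.086). Its locus overlaps that of Rbm10, and the strand setting of the counting is not given in the sources used here, so reads of the overlap may not be separable.

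The most abundant complex I mRNA by name was Ndufa4, at 414 ± 16.9 TPM with stearic acid and 454 ± 46.1 TPM with vehicle (SD, n = 3 each). Its protein was first assigned to complex I and is now regarded as a complex IV subunit. Moving it there left the median log2 fold change of complex I at 0.009 and set that of complex IV at -0.121 in place of -0.116. Ndufa3, an accessory subunit, came next at 283 ± 4.26 TPM with stearic acid and 324 ± 37.6 TPM with vehicle. On TPM values all its stearic acid values lay below its vehicle values, and the change did not pass (log2 fold change -0.19, limma adjusted p = 0.13). Ndufa11, another accessory subunit of the membrane arm, was the least abundant of those tested, at 35.0 ± 1.96 TPM with stearic acid and 34.3 ± 1.42 TPM with vehicle. Ndufa4l2, a paralogue of Ndufa4 known to be induced in hypoxia, fell under the filter with a mean of 0.023 TPM.

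Complex II, succinate dehydrogenase, feeds electrons from the citrate cycle into the chain. None of its 4 genes passed the limma test, where 24.7% of all genes did. None had an unadjusted limma p under 0.05, where 40.4% of all genes did. The summed level of complex II was 931.9, 937.2 and 935.6 TPM with stearic acid, against 964.6, 979.7 and 962.9 TPM with vehicle. On TPM values these sums did not overlap and lay close together, with a ratio of 0.965, or 0.970 without vehicle replicate 2. The median-of-ratios size factors were 0.966 for stearic acid replicate 2 and 1.05 for vehicle replicate 3. They differ by a larger factor than the highest and lowest of these sums, so the separation depends on the scaling. The median log2 fold change of the 4 genes was -0.055, against -0.028 for all genes, and it was -0.043 without vehicle replicate 2 and -0.010 on RPKM values. Sdhd, a membrane anchor at the ubiquinone site, had 222, 216 and 222 TPM with stearic acid, against 239, 248 and 233 TPM with vehicle. On TPM values its groups did not overlap, and the log2 fold change of -0.12 did not pass (limma adjusted p = 0.15, 95% confidence interval -0.26 to 0.01). The iron-sulfur subunit Sdhb averaged 249 ± 6.30 TPM with stearic acid and 256 ± 11.3 TPM with vehicle (SD, n = 3 each). The other membrane anchor, Sdhc, averaged 238 ± 4.45 TPM with stearic acid and 233 ± 5.12 TPM with vehicle (SD, n = 3 each).

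In complex III, the cytochrome bc1 complex, Uqcrq was higher with stearic acid and the other 7 tested genes did not pass. Thus 12.5% of the complex III genes were called, against 24.7% of all genes. Uqcrq encodes a small subunit next to the ubiquinone-binding part of the complex, and lies on chromosome 11 at 53427922 to 53430831 (GRCm38). It had 96.1, 105 and 98.5 TPM with stearic acid, against 75.0, 87.2 and 72.8 TPM with vehicle. The groups did not overlap, with a log2 fold change of 0.35 (SE 0.083; limma adjusted p = 0.020). The call was lost without stearic acid replicate 3, vehicle replicate 1 or vehicle replicate 3 (limma adjusted p over 14 alternatives 0.0031 to 0.086), while the log2 fold change stayed at 0.30 to 0.43 in the 6 fits that left out a library. Uqcrq was the least abundant tested mRNA of the complex, and the end of its locus overlaps Gdf9, which averaged 0.767 TPM with stearic acid and 0.678 TPM with vehicle.

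The hinge protein mRNA, Uqcrh, was the most abundant in complex III, with 381, 363 and 402 TPM with stearic acid, against 428, 506 and 404 TPM with vehicle. On TPM values its groups did not overlap, with the stearic acid values below the vehicle values, and the log2 fold change of -0.22 did not pass (limma adjusted p = 0.11). Uqcrb, a ubiquinone-binding subunit, averaged 336 ± 21.1 TPM with stearic acid and 326 ± 44.9 TPM with vehicle (SD, n = 3 each). Over the 8 genes the median log2 fold change was 0.019, and its sign depended on single libraries, at 0.067 without vehicle replicate 2, -0.013 without vehicle replicate 1 and -0.019 without vehicle replicate 3. The summed level was 1810.5, 1845.6 and 1881.5 TPM with stearic acid, against 1821.2, 2075.1 and 1775.7 TPM with vehicle, which overlapped. The ratio was 0.976, or 1.026 without vehicle replicate 2. A pseudogene name, Uqcrh-ps1, was listed at 0 in every library.

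Complex IV, cytochrome c oxidase, held 3 of the 5 genes that passed, and these encode tissue isoforms or a relative of other subunits. Of its 14 tested genes, 1 was higher, 2 were lower and 11 did not pass, so 21.4% were called, against 24.7% of all genes. The median log2 fold change was -0.116 with all libraries and -0.014 without vehicle replicate 2. The summed level was 4930.7, 4911.2 and 5012.3 TPM with stearic acid, against 5062.3, 5726.4 and 4941.1 TPM with vehicle, a ratio of 0.944, or 0.990 without vehicle replicate 2. The sums overlapped, and vehicle replicate 2 was the highest of the 6.

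Cox6a2 had the largest change of the 79 genes. It encodes the isoform of subunit VIa known from heart and skeletal muscle, and lies on chromosome 7 at 128205435 to 128206366 (GRCm38). It had 3.30, 6.33 and 5.11 TPM with stearic acid, against 0.985, 1.14 and 1.35 TPM with vehicle. All stearic acid values exceeded all vehicle values, by a log2 fold change of 1.42 with an SE of 0.18 (limma adjusted p = 0.0021). It passed in all 13 alternatives it entered (limma adjusted p up to 0.035), and its log2 fold change was 1.25 to 1.64 in the 6 that left out a library. The muscle mRNAs Ckm and Myh7 were near 0, Ckm averaging 0.0870 TPM with stearic acid and 0.0608 TPM with vehicle, and Myh7 being at 0 in every library. The end of the locus overlaps the integrin gene Itgad, which averaged 0.00995 TPM with stearic acid and 0.0136 TPM with vehicle.

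Cox6a2 was nevertheless a small part of the mRNA for subunit VIa. It made up 0.849 ± 0.237% of the summed TPM of Cox6a1 and Cox6a2 with stearic acid and 0.231 ± 0.0439% with vehicle (SD, n = 3 each). Cox6a1, the isoform of most tissues, had 544, 582 and 583 TPM with stearic acid, against 504, 520 and 481 TPM with vehicle. Its groups did not overlap, in the same direction as Cox6a2, but the log2 fold change of 0.18 did not pass (limma adjusted p = 0.065).

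Cox6b2, the isoform of subunit VIb known from testis, was lower with stearic acid. It had 1.84, 0.941 and 0.962 TPM with stearic acid, against 2.92, 1.94 and 3.31 TPM with vehicle. The groups did not overlap but came close, between stearic acid replicate 1 and vehicle replicate 2, for a log2 fold change of -0.73 (SE 0.18; limma adjusted p = 0.024). The call was lost without stearic acid replicate 3 or any of the 3 vehicle libraries (limma adjusted p over 13 alternatives 0.00017 to 0.10). The gene lies on chromosome 7 at 4751792 to 4753094 (GRCm38) and gave 0.175 ± 0.0744% of the summed TPM of Cox6b1 and Cox6b2 with stearic acid and 0.356 ± 0.117% with vehicle. Cox6b1, the common isoform, averaged 714 ± 14.6 TPM with stearic acid and 779 ± 74.2 TPM with vehicle and did not pass (log2 fold change -0.12, limma adjusted p = 0.26).

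Cox7a2l was also lower. Its product is a relative of subunit VIIa that joins complexes III and IV into supercomplexes, and C57BL/6 mice carry a shortened form of it. The gene lies on chromosome 17 at 83501917 to 83514333 (GRCm38). It had 424, 324 and 386 TPM with stearic acid, against 489, 503 and 475 TPM with vehicle. All vehicle values exceeded all stearic acid values, stearic acid replicate 2 being the lowest, for a log2 fold change of -0.38 (SE 0.096; limma adjusted p = 0.024). The call was lost without stearic acid replicate 3 or any of the 3 vehicle libraries (limma adjusted p over 14 alternatives 0.00040 to 0.082).

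The subunit VIIa genes proper did not pass. Cox7a2, the common isoform, averaged 264 ± 14.6 TPM with stearic acid and 287 ± 41.7 TPM with vehicle (SD, n = 3 each). Cox7a1, the isoform known from heart and muscle, averaged 15.03 ± 0.186 TPM with stearic acid and 17.8 ± 3.64 TPM with vehicle (SD, n = 3 each). Both spreads were widest with vehicle, where replicate 2 was the highest.

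Of the common complex IV subunits, Cox4i1 encodes the large nuclear-encoded subunit IV. By its mean over the 6 libraries it had the most abundant mRNA of all 79 genes. With stearic acid alone, Atp5b had a higher mean, at 876.6 TPM. Cox4i1 averaged 831 ± 25.6 TPM with stearic acid and 924 ± 61.8 TPM with vehicle. Its log2 fold change of -0.15 did not pass (limma adjusted p = 0.14). Its isoform Cox4i2, known to be induced in hypoxia, was under the filter at 0.165, 0.148 and 0.198 TPM with stearic acid, against 0.262, 0.323 and 0.333 TPM with vehicle. Those groups did not overlap, at a level where each library has few reads, and the gene was not tested. Cox5b, a zinc-binding subunit chosen after its values were seen, had 375, 375 and 373 TPM with stearic acid, against 309, 348 and 334 TPM with vehicle. It did not overlap between groups and did not pass (log2 fold change 0.18, limma adjusted p = 0.071). Cox8a, the common isoform of subunit VIII, averaged 419.6 ± 9.46 TPM with stearic acid and 413 ± 31.0 TPM with vehicle. The other isoform names Cox8b, Cox8c and Cox7b2 had means of 0.0166, 0 and 0 TPM.

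**Figure D4:**
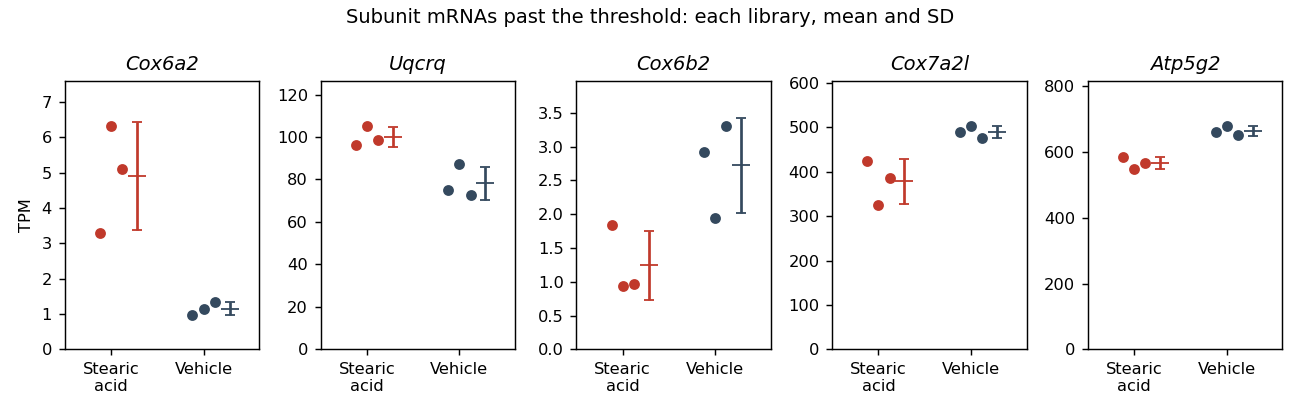
TPM of the 5 subunit genes that passed, with a point for each library, the mean and SD beside the points (n = 3), and stearic acid to the left of vehicle in each panel. Cox6a2 and Uqcrq are higher with stearic acid, Cox7a2l, Cox6b2 and Atp5g2 are lower, and the groups do not overlap in any of the 5 panels.

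In complex V, the ATP synthase, Atp5g2 was lower with stearic acid and the other 16 tested genes did not pass. Thus 5.88% of the complex V genes were called, against 24.7% of all genes. Atp5g1, Atp5g2 and Atp5g3 encode the same mature protein, subunit c of the proton-driven rotor, with different import sequences, so the cell draws one subunit from 3 genes. The 250 bases before Atp5g2 are shown because it is the gene of complex V that passed. They lie at chr15:102671048-102671297 on the minus strand, 5′ to 3′, from RefSeq's promoter table (GRCm38.p6), and capitals mark exact matches on either strand to the 8 motifs searched.
Atp5g2: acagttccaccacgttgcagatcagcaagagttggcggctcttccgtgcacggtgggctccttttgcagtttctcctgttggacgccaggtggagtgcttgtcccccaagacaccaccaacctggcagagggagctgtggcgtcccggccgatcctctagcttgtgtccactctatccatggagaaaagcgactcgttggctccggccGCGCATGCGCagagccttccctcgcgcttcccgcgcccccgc
The capitals are 2 overlapping matches to the NRF1 motif GCATGCGC, which begin 42 and 40 bases before the start. A match is a description of these letters and says nothing of binding.

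Atp5g2 had 585, 547 and 565 TPM with stearic acid, against 661, 679 and 650 TPM with vehicle. All stearic acid values lay below all vehicle values, for a log2 fold change of -0.23 (SE 0.060; limma adjusted p = 0.027). The gene lies on chromosome 15 at 102662868 to 102671047 (GRCm38). This was the least stable of the 5 calls, passing in 6 of 14 alternatives (limma adjusted p 0.0093 to 0.11) and, of the 6 that left out a library, only without stearic acid replicate 1.

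Neither of the other subunit c genes passed, and both had values on the other side of 0. Atp5g1 had 222, 279 and 256 TPM with stearic acid, against 211, 232 and 211 TPM with vehicle, which overlapped (log2 fold change 0.20, limma adjusted p = 0.12). Atp5g3 had 450, 489 and 475 TPM with stearic acid, against 429, 466 and 416 TPM with vehicle, which overlapped too (log2 fold change 0.11, limma adjusted p = 0.26). The sum of the 3 was 1257, 1314 and 1296 TPM with stearic acid, against 1300, 1377 and 1277 TPM with vehicle, and so overlapped.

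As shares of that sum, the 3 genes separated the groups. Atp5g2 gave 46.5%, 41.6% and 43.6% with stearic acid, against 50.8%, 49.3% and 50.9% with vehicle. Atp5g1 gave 17.7%, 21.2% and 19.7% with stearic acid, against 16.2%, 16.8% and 16.5% with vehicle. Atp5g3 gave 35.8%, 37.2% and 36.6% with stearic acid, against 33.0%, 33.9% and 32.6% with vehicle. None of the 3 shares overlapped between groups, and a share within a library does not depend on how the libraries are scaled. The shares were compared after their values were seen and were not tested, and a lower share of one gene raises the others by construction.

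**Figure D5:**
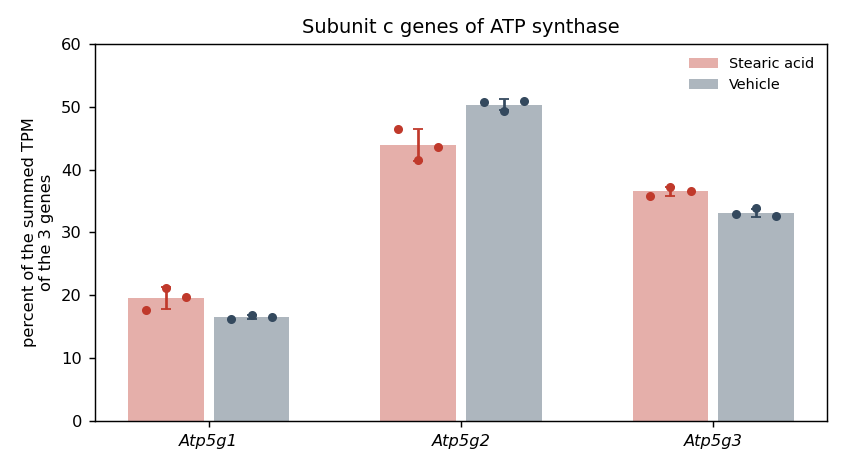
Share of the summed TPM of Atp5g1, Atp5g2 and Atp5g3 that each gene gave, in percent, with bars for means, error bars for SD, a point for each library and stearic acid to the left of vehicle. Atp5g2 gave 43.9 ± 2.49% with stearic acid and 50.3 ± 0.890% with vehicle (SD, n = 3 each).

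Among the rest of complex V, Atp5b, the catalytic beta subunit, was the most abundant. It had 778, 961 and 892 TPM with stearic acid, against 757, 773 and 751 TPM with vehicle. Its groups did not overlap, and the log2 fold change of 0.20 did not pass (limma adjusted p = 0.10). Atp5l, subunit g of the membrane part, averaged 690 ± 17.3 TPM with stearic acid and 719 ± 68.4 TPM with vehicle (SD, n = 3 each). The 5 genes of the catalytic F1 head had a median log2 fold change of -0.003 (0.009 without vehicle replicate 2), and the other 12 had one of -0.136 (-0.039 without vehicle replicate 2).

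The complex V names include genes whose products are not subunits of the enzyme in the strict sense. Atp5sl, named after the ATP synthase but known in humans as an assembly factor of complex I, averaged 24.0 ± 4.12 TPM with stearic acid and 28.9 ± 2.42 TPM with vehicle (log2 fold change -0.27, limma adjusted p = 0.13). Its relative Atp5s was the least abundant tested complex V name, at 4.87 ± 0.427 TPM with stearic acid and 5.62 ± 0.656 TPM with vehicle. Over all 17 tested names the median log2 fold change was -0.089 with all libraries, -0.025 without vehicle replicate 2 and -0.044 on RPKM values. The summed level was 6053.8, 6404.1 and 6306.6 TPM with stearic acid, against 6262.0, 6904.6 and 6127.3 TPM with vehicle, which overlapped. The ratio was 0.973, or 1.010 without vehicle replicate 2. The pseudogene name Atp5c1-ps was listed at 0 in every library.

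The filter on a mean of 1 TPM left out 7 names, 4 of them at 0 in every library, and the next above it were Cox6b2, Cox6a2 and Atp5s at means of 1.99, 3.03 and 5.24 TPM. The means of Cox6a2 and Cox6b2 were above 1 TPM in each group taken alone, at 4.91 TPM with stearic acid and 1.16 TPM with vehicle for Cox6a2, and at 1.25 TPM with stearic acid and 2.72 TPM with vehicle for Cox6b2.

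Promoter windows (250 bases before an annotated transcript start to 50 after it, which for a gene with several starts can lie inside the gene) were available for 67 of the 79 subunit genes. The motif AAGATGGC of YY1, a factor with known sites in respiratory genes, was in 11 windows (16.4%), against 5.7% of tested genes with a window and 3.19% of all genes in the table. The motif GCATGCGC of NRF1, a known activator of respiratory genes, was in 10 (14.9%), against 6.17% of tested genes and 3.05% of all genes. The ERR motif AAGGTCA was in 8 (11.9%), against 3.82% of tested genes and 5.38% of all genes. The ETS motif CCGGAAGT was in 5 (7.46%), against 9.83% of tested genes and 4.31% of all genes, and the CRE motif TGACGTCA was in 4 (5.97%), against 3.66% and 2.03%. The antioxidant response motif TGACNNNGC was in 9 (13.4%), against 17.2% of tested genes and 14% of all genes, and the TATA motif TATAAA was in 5 (7.46%), against 8.43% and 15.7%. The ATF4 motif TGATGNAA was in 0, against 2.81% of tested genes and 4.51% of all genes. Both strands were searched, and a gene with several windows counted once.

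Assembly factors, which insert cofactors and join subunits, had calls in both directions. Of 59 tested, 8 were higher with stearic acid (13.6%, against 12.8% of all genes), 3 were lower (5.08%, against 11.9%) and 48 did not pass, with a median log2 fold change of 0.108, against -0.003 for the subunits. The list held Atp5sl, which is also among the subunit genes, and Ndufab1, an Nduf name that the name rule does not take. Neither passed (log2 fold changes -0.265 and 0.305, limma adjusted p = 0.131 and 0.0589). For complex IV, 6 of 26 were higher (23.1%) and 1 was lower (3.85%). Sco2, which delivers copper to complex IV, had 12.4, 15.7 and 12.9 TPM with stearic acid, against 6.17, 5.60 and 5.58 TPM with vehicle. All its stearic acid values lay above all vehicle values, with a log2 fold change of 1.11 (SE 0.10; limma adjusted p = 0.00047), called in all 14 alternatives. Sco2 overlaps Ncaph2, which was lower with stearic acid (log2 fold change -0.36, limma adjusted p = 0.019), and almost all of its locus lies within that of Tymp, which averaged 0.851 TPM with stearic acid and 0.224 TPM with vehicle, under the filter. Reads of these overlaps may not be separable.

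The other complex IV assembly factors that were higher were Cox17, a copper chaperone (0.40), Cox10, a haem farnesyltransferase (0.42), Coa7 (0.34), Cox18, a membrane insertase (0.27), and Lrpprc, which stabilises mitochondrial mRNAs (0.23), as log2 fold changes. Cmc2 was lower, at 24.5, 23.9 and 25.5 TPM with stearic acid, against 31.4, 34.7 and 30.7 TPM with vehicle (log2 fold change -0.37, limma adjusted p = 0.012, called in all 14 alternatives). Cmc2 overlaps Cenpn, a centromere protein gene that was lower as well (log2 fold change -0.45, limma adjusted p = 0.010). The 6 higher complex IV factors became 10, 3 and 1 without stearic acid replicates 1, 2 and 3, and 1, 2 and 1 without vehicle replicates 1, 2 and 3. The share of all genes that passed, in either direction, moved too. It was 43.4%, 17.3% and 8.7% without these stearic acid libraries and 9.29%, 4.76% and 5.44% without these vehicle libraries. Apart from Sco2 and Cmc2, each of the assembly factors named here lost its call in 3 or more of these 6 fits.

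For complex I, 2 of 19 tested assembly factors were higher (10.5%, against 12.8% of all genes) and 17 did not pass. They were Ndufaf4 (log2 fold change 0.54, limma adjusted p = 0.027) and Ndufaf6 (0.31, limma adjusted p = 0.036). The 2 became 6 without stearic acid replicate 1, 1 without stearic acid replicate 2 and 0 in the other 4 fits. In those fits 43.4%, 17.3% and 4.76% to 9.29% of all genes passed, in either direction. The complex II factor Sdhaf4 was lower (-0.34, limma adjusted p = 0.037), as was the complex V factor Tmem242 (-0.23, limma adjusted p = 0.0496), and none of 5 tested complex III factors passed. Sdhaf4 and Tmem242 each passed in only 1 of the 6 fits that left out a library.

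Pathways that supply the chain had no calls with all libraries. None of 14 citrate cycle genes, 9 tested electron carriers and entry enzymes or 7 tested inner membrane carriers passed limma's adjusted threshold, with median log2 fold changes of 0.084, 0.059 and 0.063. Without stearic acid replicate 1, 5 citrate cycle genes were higher, 2 carriers and entry enzymes were higher and 1 was lower, and 1 inner membrane carrier was higher, as 1 was without stearic acid replicate 2. With a replicate block, 1 citrate cycle gene and 2 carriers and entry enzymes were higher. With quantile normalization, 1 carrier or entry enzyme and 1 inner membrane carrier were higher. Calls among all genes moved in these fits as well, against 24.7% in either direction in the main fit. Of all genes tested, 43.4% passed when stearic acid replicate 1 was left out and 17.3% when replicate 2 of that group was. The block gave 31.5% and quantile normalization 29.9%. Cyc1, the cytochrome c1 subunit of complex III, which the name rule does not take, had 153, 191 and 169.5 TPM with stearic acid, against 147, 142 and 141.5 TPM with vehicle. Its groups did not overlap, and the log2 fold change of 0.25 did not pass (limma adjusted p = 0.062).

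Of 13 genes for coenzyme Q, the lipid that carries electrons to complex III, 2 were higher (15.4%, against 12.8% of all genes). Coq10b, a coenzyme Q-binding protein, averaged 27.1 ± 6.46 TPM with stearic acid and 16.2 ± 0.577 TPM with vehicle (SD, n = 3 each), a log2 fold change of 0.69 (limma adjusted p = 0.014) that did not pass without vehicle replicate 2 or 3. Coq3, a methyltransferase of the synthesis, had a log2 fold change of 0.35 (limma adjusted p = 0.019) and passed in 2 of the 6 fits that left out a library. Of 16 tested regulators of mitochondrial biogenesis, 2 were higher (12.5%, close to the share of all genes). Pprc1, a coactivator of the PGC-1 family, averaged 29.2 ± 6.42 TPM with stearic acid and 18.1 ± 1.15 TPM with vehicle (SD, n = 3 each), a log2 fold change of 0.64 (limma adjusted p = 0.016) that did not pass without stearic acid replicate 3, vehicle replicate 2 or vehicle replicate 3. Esrra, a nuclear receptor of the ERR family, had a log2 fold change of 0.34 (limma adjusted p = 0.032) and passed in 2 of the 6 fits. Nrf1 and the mitochondrial transcription factor Tfam did not pass, with log2 fold changes of 0.06 and -0.05.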

How the data were processed

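RNA of 6 bone marrow derived macrophage libraries (3 stearic acid, 3 vehicle) was sequenced from polyA-selected stranded libraries, per the labels' protocols. The deposited tables give TPM and RPKM per gene as the authors made them. The tables were made with DRAGEN (version not given) on GRCm38/mm10, per the submitters' processing notes. For the annotation, the counting rule and the strand setting, nothing is given in the sources used here. Raw counts were not used here. Depth was estimated from the steps of RPKM in genes spanning under 1500 bases, where 43.0% to 45.7% of values came out whole within 0.02, too few to recover counts, and reads and read pairs could not be told apart. The design had foreseen counts as one possibility, and the TPM form of it was used.

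Genes with a mean TPM of 1 or more (11551 of 36333) were fitted with limma 3.58.1 (R 4.3.3) with a trended prior on log2(TPM + 1), with treatment as the only term, two-sided, with Benjamini-Hochberg adjustment over all genes tested and a threshold of 0.05. The procedure was checked on simulated data. The subunit genes and the other lists were chosen with earlier results of these data known. Named subunits are those that passed, the 2 most and the 1 least abundant and the largest change of each complex, and all tissue isoforms. From the other lists they are the called genes, up to 2 per direction where more than 5 were called, others having been named after their values were seen. Transcript lengths are medians over GENCODE vM21 transcripts, available for all 79 subunit genes and 94.4% of genes tested. Gene positions are from RefSeq on GRCm38. Alternatives were another pseudocount, other filters, RPKM, median-of-ratios and quantile scaling, a replicate block, leaving out each library, other assignments of names, and, added after seeing the data, removal of a length trend with lowess.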

Additional observations from a re-analysis of the deposited data

How the results depend on the processing

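The counts of calls and the median fold changes of the subunit genes were recomputed under each scaling, filter and library left out, while the other assignments of names were applied only to the results they touch and non-overlap was recounted under 4 scalings. No complex II gene passed in any of these fits. No called value changed sign. Of the main counts and medians, 203 alternative values kept within 1.5 times or 1 SD, 15 counts moved further up, 39 moved further down and 3 medians moved by over 1 SD. Leaving out each library gave 384 to 2223 higher and 142 to 2787 lower among all genes, 1 to 7 higher and 0 to 6 lower among the subunit genes, 0 to 2 higher and 0 to 1 lower in complex I, 0 to 1 higher in complex III, 1 to 2 higher and 0 to 3 lower in complex IV, and 0 to 2 higher and 0 to 2 lower in complex V. The complex IV median was -0.170 to -0.014 in those fits. With no filter on low values, 672 genes were higher and 355 lower, the subunit genes had 1 higher and 0 lower, complex III had 0 higher, and complexes IV and V had 0 lower. With a mean TPM of 5 or more, which leaves out Cox6a2 and Cox6b2, the subunit genes had 1 higher, and complex IV had 0 higher and 1 lower. On RPKM 1981 of all genes were higher and 1373 lower, and the subunit genes had 4 higher. Complex I then had 1 higher, complex V had 1 higher and 0 lower, and the complex II median was -0.010. With median-of-ratios scaling complex V had 0 lower and the complex II median was -0.031. With quantile normalization, and with the length trend removed, complex IV had 2 higher. Of all genes, 25.7% passed with a mean TPM of 5 or more and 28.6% with median-of-ratios scaling. The shares were 29.9% with quantile normalization and 31.3% with the length trend removed. The cause of these changes was not tested.

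The replicate numbers pair nothing that the labels name. Same-numbered libraries deviated together by correlations of 0.07, 0.288 and 0.039, and stearic acid replicate 1 correlated best with vehicle replicate 3. With the replicate block, 1641 genes were higher and 1997 lower, the subunit genes had 3 higher and 4 lower, complex I had 1 higher and complex V had 2 lower.

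Depth limits Cox6a2, Cox6b2 and Cox4i2, which have few reads.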
